A study of Mus musculus with 6 samples.

Results

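B cell and immunoglobulin genes were followed in RNA-seq of peritoneal macrophages from wildtype (WT) and FOXO3 knockout (FOXO3 KO) mice. The 35 genes were taken by symbol from a fixed list of B cell receptor chains, B cell transcription factors, signalling proteins, surface receptors and secretory proteins, out of the 54648 gene symbols in the deposited table. All 35 had a count in every library. The study asked how loss of FOXO3, a forkhead transcription factor, changes the transcriptome of macrophages. Both groups were C57BL/6 mice of 6 to 8 weeks on standard chow, male and female per the methods, and the mice of both groups were genotyped littermates. All received 3% thioglycollate into the peritoneum, an irritant that draws monocytes which mature to macrophages, and cells were collected 4 days later. By label and methods, 3 libraries were from WT mice, with both functional Foxo3 alleles, and 3 from mice homozygous for the knockout. The knockout is a whole-body one rather than one of macrophages alone. The cells were labelled as intraperitoneal macrophages, no sorting step is described, and libraries of total RNA were sequenced as paired reads of 76 bp.

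A B cell recognizes antigen with a membrane immunoglobulin, made of a heavy chain with a kappa or lambda light chain, which signals through the CD79A and CD79B pair. The peritoneal cavity holds B-1 cells, which are long-lived, make natural IgM and use a restricted set of V segments, beside recirculating B-2 cells, which carry IgD, CD21 and CD23. Plasma cells are the antibody-secreting end of the lineage and depend on chaperones of the endoplasmic reticulum and on the joining chain that links IgM and IgA units.

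Levels are given as CPM, the count of a gene scaled to the size of its library, and were set between libraries only. Library totals were between 28083393 and 36424117 counts. The knockout was checked first. Foxo3 stood at 117, 106 and 72.2 CPM across WT 1, 2 and 3, against 4.77, 103 and 4.33 CPM across FOXO3 KO 1, 2 and 3. The library labelled FOXO3 KO 2 therefore held Foxo3 at the WT level, and the group results were also taken without it. The libraries were also split by Xist, the RNA of the inactive X chromosome, which was chosen after its values were seen. Xist had 31162 counts in WT 3 and 37681 in FOXO3 KO 3 and at most 5 counts in the other 4 libraries. The summed level of the Y-linked Ddx3y, Eif2s3y, Kdm5d and Uty was 277, 217 and 55.0 CPM across WT 1, 2 and 3, against 299, 298 and 7.48 CPM across FOXO3 KO 1, 2 and 3, so that WT 3 held both Xist and Y-linked transcripts. Whether the library labelled WT 3 holds RNA of more than 1 mouse was not tested. Where a B cell gene differs, fewer B cells and less of its RNA per cell cannot be told apart in these bulk samples.

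V segments known from B-1a cells were among the most counted. Summed over the libraries, the largest heavy chain V segment was Ighv11-2, with 3567 counts, and the largest kappa V segment was Igkv14-126, with 4848 counts. WT 3 gave 1933 and 2756 of these counts. Within libraries Ighv11-2 was the largest in 4 and second in WT 2 and FOXO3 KO 3, and Igkv14-126 was the largest in 5 and second in WT 2. These are the VH11 and Vk9 segments whose pairing recognizes phosphatidylcholine on damaged membranes. The same specificity is made by Ighv12-3 (VH12) with Igkv4-91 (Vk4), which had 1472 and 1674 counts. The last 60 bases of each germline segment are shown from GENCODE M21 on GRCm38. Their final part enters the junction of the rearranged gene. Capitals mark the codon of the conserved cysteine at the edge of that junction. The coordinates are chr12:114048241-114048300, minus strand, for Ighv11-2, chr12:114366521-114366580, minus strand, for Ighv12-3, chr6:67896583-67896642, plus strand, for Igkv14-126 and chr6:68768555-68768614, minus strand, for Igkv4-91, all within the coding exon of the segment.
Ighv11-2: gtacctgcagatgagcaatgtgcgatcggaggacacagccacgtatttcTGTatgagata
Ighv12-3: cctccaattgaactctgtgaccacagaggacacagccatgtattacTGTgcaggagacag
Igkv14-126: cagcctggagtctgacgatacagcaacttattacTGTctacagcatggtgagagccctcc
Igkv4-91: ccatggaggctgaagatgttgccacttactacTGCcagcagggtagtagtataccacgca

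The mu heavy chain constant gene Ighm, which gives IgM, stood at 717, 372 and 2294 CPM across WT 1, 2 and 3, against 172, 293 and 636 CPM across FOXO3 KO 1, 2 and 3. WT 3 was the highest and FOXO3 KO 1 the lowest, and the other 4 libraries overlapped between the groups. WT averaged 1128 ± 1025 CPM and FOXO3 KO averaged 367 ± 241 CPM (SD, n = 3 in each), which gave a log2 fold change of -1.64 (SE 0.79) with an adjusted p of 0.839 by edgeR. Of the other immunoglobulin chains, the kappa constant gene Igkc stood at 204, 109 and 734 CPM across WT 1, 2 and 3, against 42.7, 89.2 and 158 CPM across FOXO3 KO 1, 2 and 3. Its libraries stood in the same order as those of Ighm, with a log2 fold change of -1.87 (SE 0.81). The delta constant gene Ighd, which B-2 cells splice from the same primary transcript as Ighm, stood at 67.4, 31.4 and 427 CPM across WT 1, 2 and 3, against 9.71, 48.3 and 41.5 CPM across FOXO3 KO 1, 2 and 3. It had the widest range of the 5 chains, 44.0-fold between WT 3 and FOXO3 KO 1, and the library labelled FOXO3 KO 2 was here above FOXO3 KO 3. The log2 fold change of Ighd was -2.42 (SE 1.10). It was -2.80 without FOXO3 KO 2 and -0.58 without WT 3.

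The lambda constant gene Iglc1 stood at 32.0, 12.6 and 87.3 CPM across WT 1, 2 and 3, against 6.77, 9.84 and 28.3 CPM across FOXO3 KO 1, 2 and 3. Iglc2 was at 45.0, 22.8 and 187 CPM across WT 1, 2 and 3, against 10.7, 23.2 and 54.0 CPM across FOXO3 KO 1, 2 and 3. In both genes WT 3 was the highest and FOXO3 KO 1 the lowest, and FOXO3 KO 3 lay within the range of WT. How reads were divided between Iglc2 and the similar gene Iglc3 is uncertain. Their aligned coding parts were identical at 303 of 314 bases (96.5%), against 74.8% between Iglc1 and Iglc2. The first 90 coding bases are shown from GENCODE M21 (GRCm38, chromosome 16, minus strand, where Iglc2 spans chr16:19198396-19200351 and Iglc3 chr16:19065230-19065681). Capitals mark the 5 bases in this stretch at which the genes differ.
Iglc2: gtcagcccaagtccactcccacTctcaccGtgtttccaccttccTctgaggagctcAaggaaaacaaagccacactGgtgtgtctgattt
Iglc3: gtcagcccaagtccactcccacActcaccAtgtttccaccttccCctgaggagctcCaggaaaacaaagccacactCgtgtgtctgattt

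The signalling pair of the B cell receptor followed the immunoglobulin chains. Cd79a stood at 129.9, 63.9 and 541 CPM across WT 1, 2 and 3, against 23.04, 59.3 and 125 CPM across FOXO3 KO 1, 2 and 3. Cd79b, its partner, stood at 119.6, 66.1 and 537 CPM across WT 1, 2 and 3, against 29.8, 56.1 and 113 CPM across FOXO3 KO 1, 2 and 3. In both, WT 3 was above every other library by over 4-fold, FOXO3 KO 1 was the lowest, and FOXO3 KO 3 was between WT 2 and WT 1. The log2 fold change was -1.84 (SE 0.94) for Cd79a and -1.88 (SE 0.88) for Cd79b, and neither passed the adjusted threshold. Vpreb3, an endoplasmic reticulum protein that binds the mu chain of immature B cells, was low, at 1.11, 0.701 and 4.92 CPM across WT 1, 2 and 3, against 0.287, 0.723 and 0.484 CPM across FOXO3 KO 1, 2 and 3. FOXO3 KO 1 and FOXO3 KO 3 were below the 3 WT libraries, and the library labelled FOXO3 KO 2 was just above WT 2. Its log2 fold change was -2.18 (SE 0.84), with an unadjusted p of 0.0385 and an adjusted p of 0.839 by edgeR.

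Among the transcription factors, Pax5, which holds B cell commitment, stood at 69.4, 30.3 and 378 CPM across WT 1, 2 and 3, against 10.3, 34.1 and 64.0 CPM across FOXO3 KO 1, 2 and 3. Ebf1, which acts upstream of Pax5, stood at 17.03, 7.95 and 94.1 CPM across WT 1, 2 and 3, against 3.33, 10.7 and 17.98 CPM across FOXO3 KO 1, 2 and 3. WT 3 was the highest for both, 5.45 times WT 1 for Pax5. WT 2 lay within the range of FOXO3 KO for both genes, and WT 1 did so for Ebf1 but not for Pax5. Pou2af1, a coactivator bound by octamer factors, stood at 63.3, 32.9 and 298 CPM across WT 1, 2 and 3, against 13.5, 35.8 and 71.4 CPM across FOXO3 KO 1, 2 and 3. Spib, an ETS factor of B cells and plasmacytoid dendritic cells, was at 51.7, 25.3 and 256 CPM across WT 1, 2 and 3, against 11.1, 24.6 and 50.02 CPM across FOXO3 KO 1, 2 and 3. FOXO3 KO 3 was above WT 1 for Pou2af1 and just below it for Spib, and the log2 fold changes were -1.73 (SE 0.96) and -1.98 (SE 0.97). Pou2f2, the octamer factor OCT2, which macrophages also make, stood at 82.1, 58.8 and 203 CPM across WT 1, 2 and 3, against 61.0, 64.3 and 106 CPM across FOXO3 KO 1, 2 and 3. Its range was 3.46-fold, with WT 3 the highest and WT 2 the lowest. Bhlhe41, a repressor that B-1a cells need and that other leukocytes make too, stood at 79.2, 84.3 and 71.5 CPM across WT 1, 2 and 3, against 84.1, 88.5 and 53.5 CPM across FOXO3 KO 1, 2 and 3. Its groups overlapped throughout, with a log2 fold change of -0.07 (SE 0.21).

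The octamer read by OCT2 was looked for in promoters, 250 bases before to 50 after the gene start, in the RefSeq table of GRCm38.p6, which matched 23 of the 35 genes. The letters ATGCAAAT, on either strand, were in a promoter of 2 of these 23 genes. Counted by promoter rather than by gene, they were in 1.74% of all 32851. The promoters were those of Vpreb3, at position -45 relative to the gene start (chr10:75948229-75948288, plus strand), and of Blnk, at position -130 (chr19:40994318-40994377, minus strand), with the coordinates of the 60 bases shown. They are shown because the level of Vpreb3 ranged 17.1-fold over the libraries and that of Blnk 1.36-fold. Capitals mark the octamer, here in its reverse orientation.
Vpreb3: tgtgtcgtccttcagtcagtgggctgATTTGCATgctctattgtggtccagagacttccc
Blnk: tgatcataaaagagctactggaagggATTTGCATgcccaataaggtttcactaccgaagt
The palindrome bound by EBF1 is TCCC and GGGA with any 2 bases between them. It was in a promoter of 1 of the 23 genes, Cd22, and in 0.904% of all promoters. None of the 23 genes had both motifs, and a match is a description of the sequence only.

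**Figure D1:**
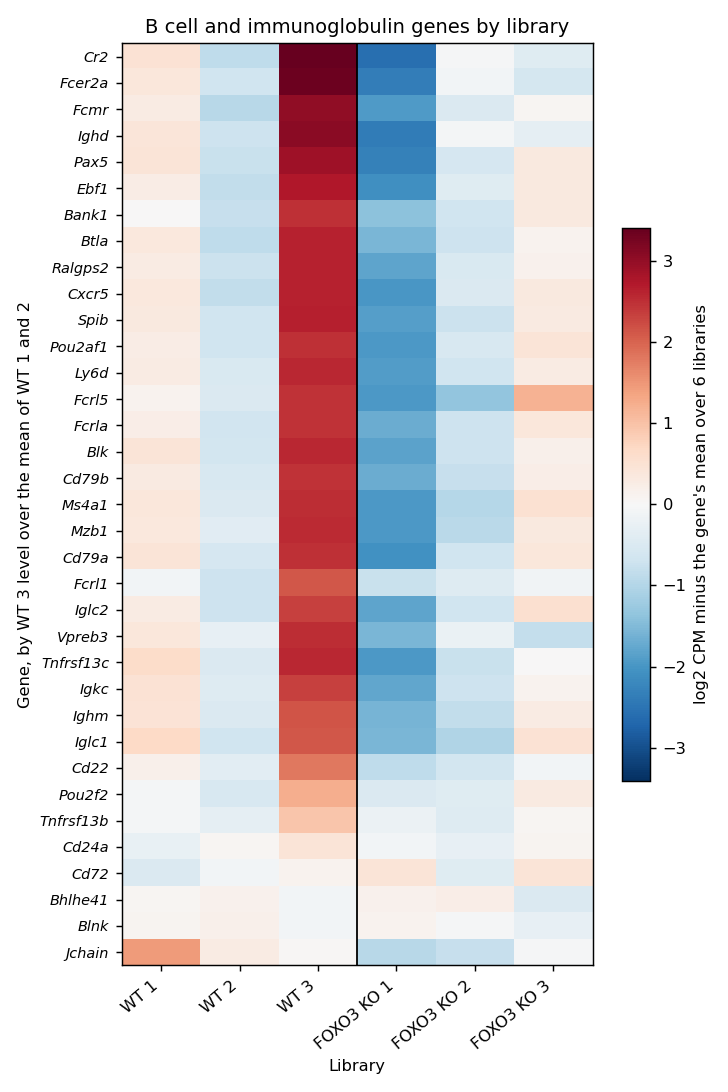
The level of each of the 35 genes in each library is shown as log2 CPM minus the gene's mean over the 6 libraries, with genes (vertical axis) ordered by the level in WT 3 over the mean of WT 1 and WT 2 and a black line between the groups. WT 3 was the highest library for 31 genes and FOXO3 KO 1 the lowest for 29, and the 7 genes at the bottom, from Pou2f2 to Jchain, lacked the first or the second of these positions.

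The signalling proteins did not all follow the receptor chains. Blk, a SRC family kinase largely of B cells, stood at 51.7, 24.6 and 229 CPM across WT 1, 2 and 3, against 10.7, 23.4 and 42.7 CPM across FOXO3 KO 1, 2 and 3. Bank1, a scaffold of the receptor, stood at 73.6, 42.2 and 410.1 CPM across WT 1, 2 and 3, against 27.5, 45.0 and 91.3 CPM across FOXO3 KO 1, 2 and 3. Ralgps2, an exchange factor for RAL GTPases, was at 46.0, 22.8 and 233 CPM across WT 1, 2 and 3, against 10.8, 26.4 and 42.1 CPM across FOXO3 KO 1, 2 and 3. These 3 genes were highest in WT 3 and lowest in FOXO3 KO 1, and their log2 fold changes were -2.01 (SE 0.92), -1.70 (SE 0.93) and -1.95 (SE 0.95). Blnk, an adaptor that couples the receptor to phospholipase C and that macrophages also make, stood at 175, 184 and 155 CPM across WT 1, 2 and 3, against 179, 160.1 and 136 CPM across FOXO3 KO 1, 2 and 3. WT 3 was here among the lowest libraries, and the log2 fold change was -0.13 (SE 0.14).

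Of the surface proteins, Ms4a1, which encodes CD20, stood at 159.9, 87.0 and 706 CPM across WT 1, 2 and 3, against 31.4, 62.2 and 174 CPM across FOXO3 KO 1, 2 and 3. With all 6 libraries, the B-2 receptors Fcer2a and Cr2 had the steepest differences. Fcer2a, the low-affinity IgE receptor CD23, stood at 17.03, 8.20 and 133 CPM across WT 1, 2 and 3, against 2.54, 12.3 and 8.69 CPM across FOXO3 KO 1, 2 and 3. Cr2, the complement receptor CD21, stood at 13.5, 5.26 and 103 CPM across WT 1, 2 and 3, against 1.61, 9.30 and 7.30 CPM across FOXO3 KO 1, 2 and 3. For both, WT 3 was over 7 times the next library, WT 1 was second, and the library labelled FOXO3 KO 2 came above WT 2 and FOXO3 KO 3. Their log2 fold changes, -2.77 (SE 1.16) and -2.75 (SE 1.21), were the most negative of the 35 genes, with unadjusted p of 0.0528 and 0.0623 and adjusted p of 0.839 for both by edgeR. Without WT 3 they were -0.69 and -0.63, and no longer the most negative. Jchain, described below, was then the most negative, and Tnfrsf13c (-0.88), Vpreb3 (-0.86) and Igkc (-0.70) were also below Fcer2a. Fcmr, the Fc receptor for IgM, stood at 30.1, 13.03 and 202 CPM across WT 1, 2 and 3, against 6.59, 17.8 and 26.1 CPM across FOXO3 KO 1, 2 and 3. It had the next highest ratio of WT 3 to the mean of WT 1 and WT 2, 9.38-fold, and a log2 fold change of -2.30 (SE 1.08).

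Cd22, an inhibitory lectin that binds sialic acid, stood at 150.2, 103 and 458 CPM across WT 1, 2 and 3, against 72.2, 85.6 and 124 CPM across FOXO3 KO 1, 2 and 3. Its range, 6.34-fold, was narrower than that of Ms4a1, 22.5-fold. Ly6d, a lineage marker, was at 38.1, 21.5 and 184 CPM across WT 1, 2 and 3, against 8.28, 19.4 and 37.5 CPM across FOXO3 KO 1, 2 and 3. Btla, an inhibitory receptor, was at 45.7, 19.6 and 221 CPM across WT 1, 2 and 3, against 12.1, 21.7 and 38.3 CPM across FOXO3 KO 1, 2 and 3. Both were highest in WT 3, as were the Fc receptor-like genes Fcrla and Fcrl1, and the log2 fold changes of these 4 genes were between -2.01 for Btla and -1.41 for Fcrl1. Fcrl5, a receptor of innate-like B cells, stood at 8.43, 5.54 and 42.7 CPM across WT 1, 2 and 3, against 2.01, 3.07 and 17.8 CPM across FOXO3 KO 1, 2 and 3. FOXO3 KO 3 was the second highest library for Fcrl5, above WT 1 and WT 2, and the log2 fold change of -1.33 (SE 1.09) changed sign to 0.13 without WT 3. Cd24a, a glycoprotein of many leukocytes, stood at 172, 216 and 279 CPM across WT 1, 2 and 3, against 189.9, 168 and 219.7 CPM across FOXO3 KO 1, 2 and 3. It differed by 1.66-fold at most, with a log2 fold change of -0.22 (SE 0.21).

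Cd72, an inhibitory coreceptor that macrophages also make, had the only positive log2 fold change of the 35 genes. It stood at 27.6, 36.4 and 42.3 CPM across WT 1, 2 and 3, against 53.1, 29.5 and 52.4 CPM across FOXO3 KO 1, 2 and 3. FOXO3 KO 1 and FOXO3 KO 3 were above all 3 WT libraries, and the library labelled FOXO3 KO 2 was within the WT range. The log2 fold change was 0.32 (SE 0.27, unadjusted p = 0.267, adjusted p = 0.856 by edgeR). Without FOXO3 KO 2 it was 0.55 (SE 0.20, unadjusted p = 0.0402, adjusted p = 0.994 by edgeR), and the groups did not overlap, a position that 12.6% of all genes held in that direction and 3.05% with an unadjusted p under 0.05.

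The homing and survival receptors also differed among themselves. Cxcr5, the receptor for the B cell chemokine CXCL13, stood at 62.1, 27.0 and 299.7 CPM across WT 1, 2 and 3, against 12.3, 34.7 and 61.3 CPM across FOXO3 KO 1, 2 and 3. Tnfrsf13c, the receptor for the survival factor BAFF, stood at 14.2, 6.52 and 54.0 CPM across WT 1, 2 and 3, against 2.36, 5.35 and 9.23 CPM across FOXO3 KO 1, 2 and 3. WT 3 was the highest for both, and for Tnfrsf13c only WT 2 lay within the range of FOXO3 KO. Tnfrsf13c had a log2 fold change of -2.16 (SE 0.88), an unadjusted p of 0.0471 and an adjusted p of 0.839 by edgeR. TACI, encoded by Tnfrsf13b, also binds BAFF and is high on B-1 cells, and macrophages make it too. Tnfrsf13b stood at 68.2, 57.7 and 137 CPM across WT 1, 2 and 3, against 62.3, 52.2 and 75.4 CPM across FOXO3 KO 1, 2 and 3, a 2.63-fold range in which only WT 3 stood apart.

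The secretory proteins did not move together. Mzb1, a chaperone that helps assemble IgM in marginal zone and B-1 cells and in plasma cells, stood at 21.8, 12.8 and 98.5 CPM across WT 1, 2 and 3, against 4.34, 8.93 and 21.3 CPM across FOXO3 KO 1, 2 and 3. Jchain, the joining chain of secreted IgM and IgA, stood at 10.6, 4.70 and 4.004 CPM across WT 1, 2 and 3, against 2.01, 2.24 and 3.72 CPM across FOXO3 KO 1, 2 and 3. Mzb1 followed Cd79a, with WT 3 the highest, while WT 3 was the lowest WT library for Jchain and lay just above FOXO3 KO 3. Jchain was the only one of the 35 genes below every WT library in all 3 FOXO3 KO libraries, on 56 to 123 counts in FOXO3 KO and 134 to 382 in WT. WT averaged 6.42 ± 3.60 CPM and FOXO3 KO averaged 2.66 ± 0.931 CPM (SD, n = 3 in each). The log2 fold change was -1.28 (SE 0.46), with an unadjusted p of 0.0300 and an adjusted p of 0.827 by edgeR. It was -1.18 without FOXO3 KO 2, where its unadjusted p by edgeR was not under 0.05. Without WT 3 it was -1.52, with an unadjusted p of 0.00991 by edgeR. Over single libraries left out it ranged from -1.60 without FOXO3 KO 3 to -0.73 without WT 1, the library with its highest level.

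**Figure D2:**
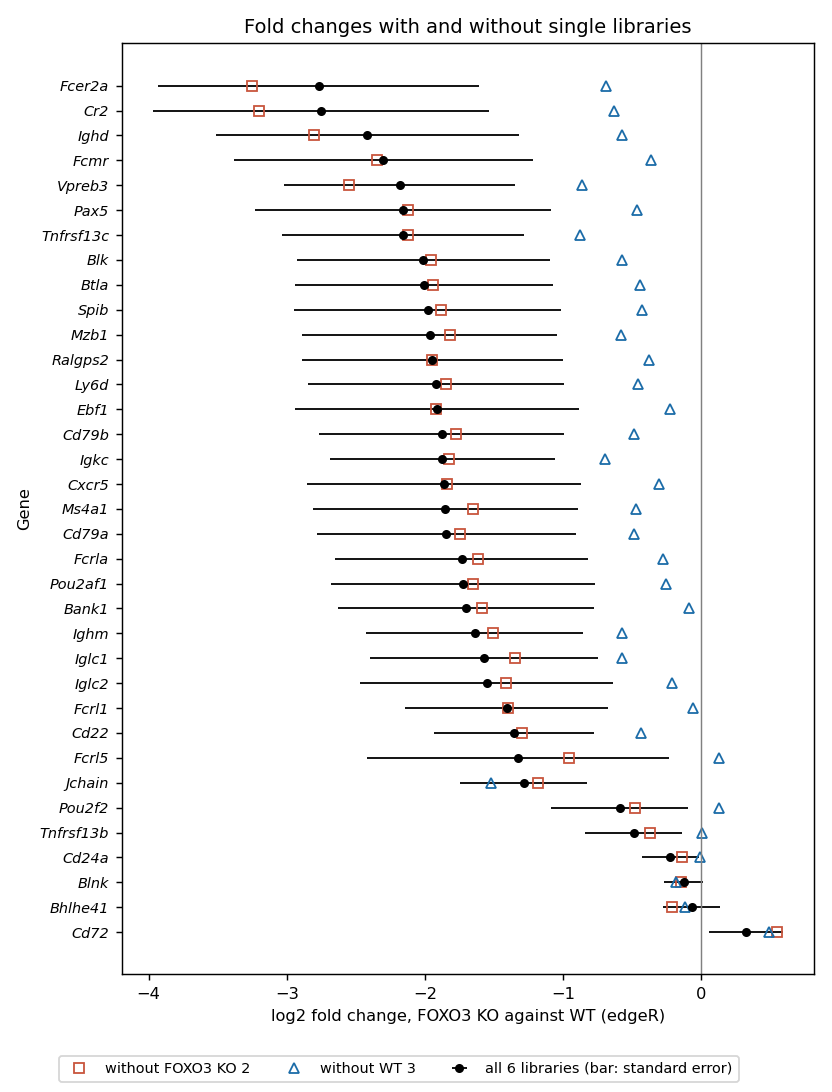
Each line is a gene, and the horizontal axis is the log2 fold change of FOXO3 KO against WT from edgeR, with black points and standard errors for all 6 libraries, open squares without FOXO3 KO 2 and open triangles without WT 3. The median over the 35 genes was -1.85 with all 6 libraries, -1.75 without FOXO3 KO 2 and -0.43 without WT 3, whereas Jchain, Cd72, Blnk and Bhlhe41 moved away from 0 without WT 3.

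Across the list, 34 of the 35 genes had a log2 fold change below 0, beside 51.2% of the 15608 genes tested, and the median was -1.85, beside -0.01 over all genes. None of the 35 passed an FDR of 0.05 in edgeR's quasi-likelihood test (0% of all genes did), with adjusted p between 0.827 and 0.947, and DESeq2 also called 0 of the 35, with 27 lower at an unadjusted p under 0.05, beside 3.84% of all genes. In edgeR, 3 genes were lower at an unadjusted p under 0.05 (Vpreb3, Tnfrsf13c and Jchain), beside 1.65% of all genes, and 0 were higher, beside 4.04%. The groups did not overlap for 1 gene that was lower, Jchain, beside 4.63% of all genes, and for 0 that were higher, beside 7.5%. Without FOXO3 KO 2, 0 of the 35 passed an FDR of 0.05 in edgeR and 0 were lower at an unadjusted p under 0.05, beside 1.26% of all genes. Jchain and Vpreb3 were then the 2 that lay below WT with no overlap, beside 7.71%. The count at an unadjusted p under 0.05 also moved with other libraries in edgeR, to 26 without WT 2 (5.77% of all genes), 7 without FOXO3 KO 3 (1.18%) and 0 without FOXO3 KO 1 (0.331%), and it was 19 with no filter on low counts (2.13%).

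The size of the difference rested largely on WT 3. WT 3 was the highest library for 31 of the 35 genes, beside 36.1% of all genes tested, and FOXO3 KO 1 the lowest for 29, beside 17.6%. The ratio of WT 3 to the mean of WT 1 and WT 2 had a median of 5.72 over the 35 genes, from 0.525 for Jchain to 10.9 for Cr2, beside 0.999 over all genes. It passed 3-fold for 28 of the 35 genes and for 7.77% of all genes. Without WT 3, 31 genes remained below 0, the median was -0.43, and Jchain was the only gene lower at an unadjusted p under 0.05 (beside 2.25% of all genes) or lower with no overlap (beside 10.7%). With both WT 3 and FOXO3 KO 2 left out, the median was -0.39.

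The difference was also taken within the split by Xist, in fits that were added with the values known. With Xist near 0 in 4 libraries, WT 1 and WT 2 against FOXO3 KO 1 and FOXO3 KO 2, 33 of the 35 genes had a log2 fold change below 0, with a median of -0.95. In this split only FOXO3 KO 1 had lost Foxo3 (4.77 CPM), since FOXO3 KO 2 held it at 103 CPM. The split therefore cannot tell loss of Foxo3 from the low level of FOXO3 KO 1. Of the 35, 15 lay below WT with no overlap, beside 17.2% of all genes, and 10 had an unadjusted p under 0.05, beside 2.13%. The 10, by edgeR, were Ighm, Igkc, Iglc1, Cd79b, Ms4a1, Cd22, Fcrl5, Tnfrsf13c, Mzb1 and Jchain, and 0 passed an FDR of 0.05. Of the libraries with Xist, FOXO3 KO 3 was below WT 3 for 34 genes, with a median log2 difference of -2.21 beside 0.04 over all genes with a count in both, a pair with no replicate. With the split as a covariate over all 6 libraries, the median was -1.45 and 23 genes were lower at an unadjusted p under 0.05, beside 4.85% of all genes, and again 0 passed an FDR of 0.05. This covariate groups WT 3 with FOXO3 KO 3, although their summed Y-linked levels differed (55.0 and 7.48 CPM), and it keeps FOXO3 KO 2 in FOXO3 KO.

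Markers of some other cells were highest in WT 3 along with the B cell genes, and those of others were not. The summed level of the 35 genes was 2917, 1846 and 10350.2 CPM across WT 1, 2 and 3, against 1189, 1656 and 2765 CPM across FOXO3 KO 1, 2 and 3. The summed level of 8 markers of resident peritoneal macrophages was 342, 226 and 6977 CPM across WT 1, 2 and 3, against 283, 649.8 and 481 CPM across FOXO3 KO 1, 2 and 3. All 8 were highest in WT 3, and their median log2 fold change was -2.35 with all libraries and 0.90 without WT 3. Cxcl13, the ligand of CXCR5 that these macrophages make, stood at 7.99, 5.57 and 550.4 CPM across WT 1, 2 and 3, against 3.19, 27.0 and 6.84 CPM across FOXO3 KO 1, 2 and 3. All 7 mast cell markers were highest in WT 3 too, with a sum of 225, 128 and 778 CPM across WT 1, 2 and 3, against 208, 100.2 and 299.8 CPM across FOXO3 KO 1, 2 and 3. Of 10 T cell markers, 9 were highest there, with a sum of 53.7, 61.3 and 172 CPM across WT 1, 2 and 3, against 53.9, 53.3 and 76.3 CPM across FOXO3 KO 1, 2 and 3. Without WT 3 these 2 lists had medians of 0.13 and 0.09, beside -0.43 for the B cell genes. Neutrophil markers summed to 38.9, 54.6 and 9.67 CPM across WT 1, 2 and 3, against 309.8, 53.2 and 224 CPM across FOXO3 KO 1, 2 and 3, and red blood cell markers to 24.5, 9.57 and 26.6 CPM across WT 1, 2 and 3, against 119, 9.15 and 184 CPM across FOXO3 KO 1, 2 and 3. Both were highest in FOXO3 KO 1 and FOXO3 KO 3. All 5 mesothelial markers tested were higher in FOXO3 KO at an unadjusted p under 0.05 by edgeR, beside 4.04% of all genes. Their median log2 fold change was 2.22. It was 1.51 without FOXO3 KO 2, where all 5 were still at an unadjusted p under 0.05 by edgeR, beside 3.05% of all genes. The 6 mesothelial markers summed to 5.03, 4.38 and 4.39 CPM across WT 1, 2 and 3, against 10.1, 37.8 and 16.0 CPM across FOXO3 KO 1, 2 and 3. The highest was thus the library labelled FOXO3 KO 2, which held Foxo3 at the WT level. The 8 general macrophage markers, by contrast, summed to between 12572 CPM in WT 3 and 17333 CPM in WT 2, and were high in every library, as the label of the cells has it. The part of these other cells in the B cell differences was not tested.

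**Figure D3:**
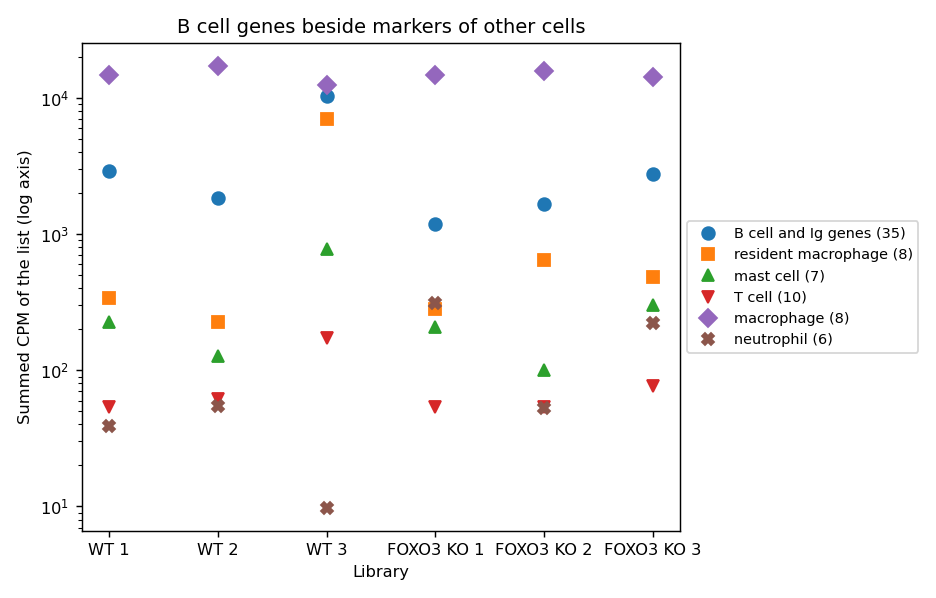
The summed CPM of the 35 B cell and immunoglobulin genes is plotted by library on a log axis beside the sums of the markers of other cells, with the number of genes in brackets. In WT 3 the B cell genes (10350 CPM), the resident macrophage markers (6977 CPM), the mast cell markers (778 CPM) and the T cell markers (172 CPM) were at their highest, and the neutrophil markers (9.67 CPM) at their lowest.

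Each gene was also divided by Cd79a in the same library, which sets makeup apart from amount only where the RNA comes from B cells. Of the 34 other genes, 19 stayed within 2-fold over the 6 libraries per 100 Cd79a counts, and 7 ranged over 5-fold. The 7 were Pou2f2, Bhlhe41, Blnk, Cd72, Cd24a, Tnfrsf13b and Jchain. All but Jchain are also made by macrophages or other leukocytes, and their ratios are not read as makeup of B cells. In CPM, Blnk ranged 1.36-fold and Bhlhe41 1.66-fold, beside 23.5-fold for Cd79a, so that their ratios mostly carry the range of Cd79a. Cd79b stayed between 90.4 and 129 counts per 100 Cd79a counts, Ms4a1 between 105 and 139, and Mzb1 between 15.1 and 19.9. Per 100 Cd79a counts, Jchain stood at 8.13, 7.34 and 0.740 across WT 1, 2 and 3, against 8.71, 3.78 and 2.97 across FOXO3 KO 1, 2 and 3, and it was lowest in WT 3.

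Of the B-2 genes, Cxcr5 stayed between 42.2 and 58.5 counts per 100 Cd79a counts, while Fcer2a, Cr2 and Ighd varied more. Per 100 Cd79a counts, Fcer2a stood at 13.1, 12.8 and 24.6 across WT 1, 2 and 3, against 11.04, 20.7 and 6.93 across FOXO3 KO 1, 2 and 3. In the same unit, Cr2 stood at 10.4, 8.22 and 18.9 across WT 1, 2 and 3, against 6.998, 15.7 and 5.82 across FOXO3 KO 1, 2 and 3. WT 3 and the library labelled FOXO3 KO 2 were the 2 highest for both and FOXO3 KO 3 the lowest. The share of Ighd in the sum of Ighm and Ighd counts stood at 8.59, 7.78 and 15.7% across WT 1, 2 and 3, against 5.34, 14.2 and 6.12% across FOXO3 KO 1, 2 and 3. This share followed the same order at the top, with WT 3 (exact 95% interval 15.5% to 15.9%) above FOXO3 KO 2 (13.5% to 14.9%) and both above the 4 others, of which WT 1 was the highest (8.27% to 8.92%). These intervals cover counting error only. Fcrl5 counts per 100 Cd79a counts were 6.49, 8.66 and 7.88 across WT 1, 2 and 3, against 8.71, 5.19 and 14.2 across FOXO3 KO 1, 2 and 3. This ratio was highest in FOXO3 KO 3 and lowest in FOXO3 KO 2. Wide ranges were not limited to B-2 genes. Per 100 Cd79a counts, Cd22 ranged 3.71-fold and Fcrl1 3.56-fold, beside 3.55-fold for Fcer2a. Both were highest in FOXO3 KO 1, at 314 for Cd22 and 43.4 for Fcrl1, and FOXO3 KO 1 was the lowest library for Cd79a. In CPM, Cd22 ranged 6.34-fold and Fcrl1 7.25-fold, beside 23.5-fold for Cd79a and 52.4-fold for Fcer2a. The ratios of Cd22 and Fcrl1 are therefore not read as makeup of B cells.

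**Figure D4:**
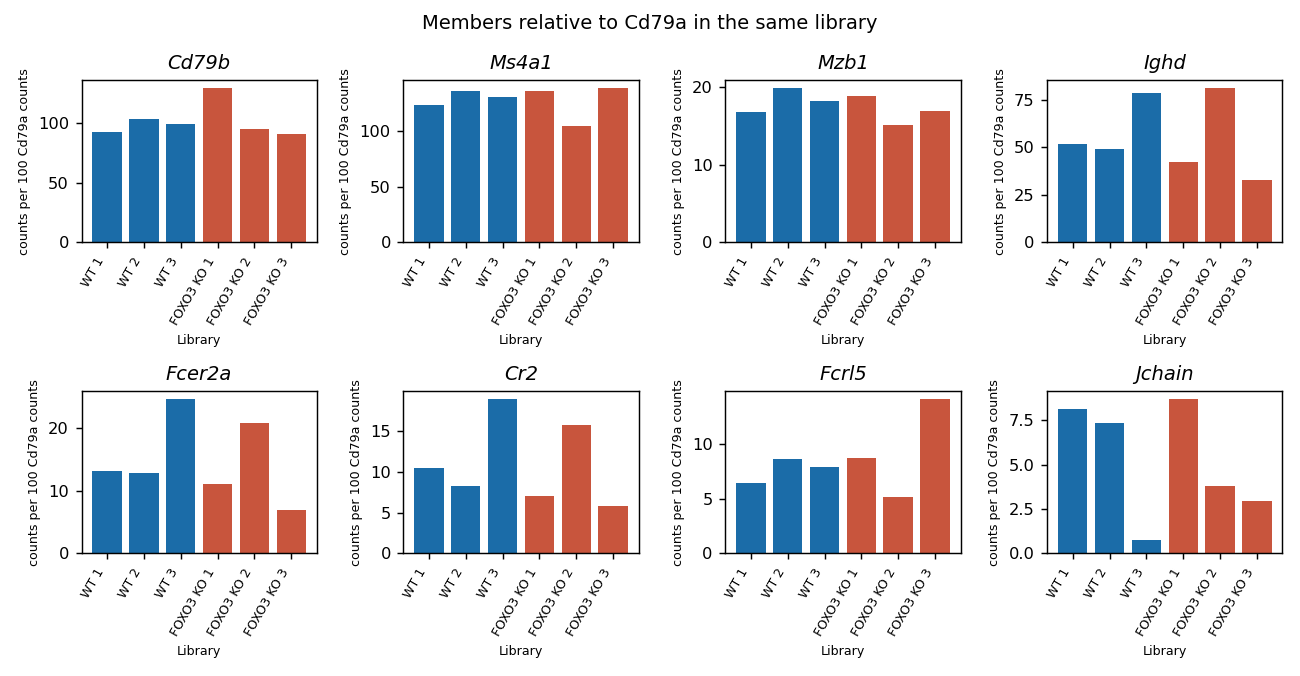
Bars give the counts of 8 genes per 100 Cd79a counts in the same library, from 0, for WT (blue) and FOXO3 KO (red). Cd79b, Ms4a1 and Mzb1 were nearly level over the libraries, Ighd, Fcer2a and Cr2 were highest in WT 3 and FOXO3 KO 2, and Jchain was lowest in WT 3 (0.740).

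These ratios and shares were compared between the groups in 12 measures that were chosen after their values were seen. With 3 against 3 libraries all 12 overlapped, and the smallest exact two-sided permutation p was 0.2 (0.764 adjusted over the 12), where 0.1 is the smallest the design allows. The Ighd share was 10.7% ± 4.35 (SD, n = 3) in WT and 8.54% ± 4.88 (SD, n = 3) in FOXO3 KO, with an exact permutation p of 0.5. Without FOXO3 KO 2, where 3 against 2 libraries cannot go below 0.2 in the permutation that was run, 6 of the 12 did not overlap. The Ighd share (5.73% ± 0.553, SD, n = 2) and the Fcer2a and Cr2 ratios were then lower in FOXO3 KO, and the Fcrl5 ratio and both lambda shares were higher. The Fcrl5 position rested on 8.71 in FOXO3 KO 1 against 8.66 in WT 2. Each of these 6 had the smallest p possible there (exact permutation p of 0.2, 0.4 adjusted), so the test could not decide whether any differs. In the same libraries, 7.71% of all genes lay below WT and 12.6% above with no overlap. Without WT 3, 10 of the 12 measures overlapped. The class-switched share was then lower in FOXO3 KO and the Cxcr5 ratio higher, each with an exact permutation p of 0.2 (0.900 adjusted). The Ighd share averaged 8.19% in WT and 8.54% in FOXO3 KO without WT 3. The Fcer2a ratio averaged 13.0 and 12.9, and the Cr2 ratio 9.32 and 9.50.

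Light chain use was read from the constant and the variable segments. Of all light chain constant counts, lambda made up 33.3, 31.0 and 34.4% across WT 1, 2 and 3, against 35.1, 32.7 and 40.2% across FOXO3 KO 1, 2 and 3. Of light chain V counts, lambda made up 17.2, 12.04 and 13.5% across WT 1, 2 and 3, against 21.6, 14.1 and 23.9% across FOXO3 KO 1, 2 and 3. The lambda share was lower by V counts than by constant counts in every library, and the reason was not tested. The readings therefore give no single estimate of lambda use. FOXO3 KO 1 and FOXO3 KO 3 had the highest shares in both readings, and the library labelled FOXO3 KO 2 lay within the range of WT. With all 6 libraries, the lambda V share was 14.3% ± 2.63 (SD, n = 3) in WT and 19.9% ± 5.14 (SD, n = 3) in FOXO3 KO (exact permutation p = 0.2).

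Of the heavy chain constant counts, class-switched genes made up 3.72, 4.65 and 2.12% across WT 1, 2 and 3, against 3.07, 2.45 and 3.66% across FOXO3 KO 1, 2 and 3. The rest were Ighm and Ighd. WT 3 had the lowest share and WT 2 the highest, with FOXO3 KO between them. Ighg3, the IgG3 gene that B-1 cells use most, made up between 47.9% of the class-switched counts in WT 3 and 74.7% in WT 2. It stood at 20.6, 14.7 and 28.2 CPM across WT 1, 2 and 3, against 3.15, 5.39 and 17.6 CPM across FOXO3 KO 1, 2 and 3, with a log2 fold change of -1.30 (SE 0.64). Of the 6 class-switched genes, 5 could be tested, and each of the 5 had a log2 fold change below 0. Of these, 1, Ighg1, was at an unadjusted p under 0.05 (0.0429, adjusted p = 0.839 by edgeR), beside 1.65% of all genes that were lower.

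The V segments described at the start gave a further reading of B-1a cells. Counts fell on 129 of 183 Ighv symbols, 123 of 160 Igkv symbols and all 3 Iglv symbols, with 18582 Ighv counts in WT 3 and 682 in FOXO3 KO 1, the highest and lowest. The level of Ighv11-2 was 23.8, 6.13 and 53.4 CPM across WT 1, 2 and 3, against 3.44, 4.88 and 11.1 CPM across FOXO3 KO 1, 2 and 3. The level of Igkv14-126 was 30.1, 8.13 and 76.1 CPM across WT 1, 2 and 3, against 4.08, 6.94 and 14.1 CPM across FOXO3 KO 1, 2 and 3. Both were highest in WT 3 and lowest in FOXO3 KO 1. Of all Ighv counts, Ighv11-2 made up 17.2, 9.74 and 10.4% across WT 1, 2 and 3, against 14.1, 10.7 and 9.90% across FOXO3 KO 1, 2 and 3. Of all Igkv counts, Igkv14-126 made up 17.2, 9.45 and 9.78% across WT 1, 2 and 3, against 12.8, 9.46 and 10.1% across FOXO3 KO 1, 2 and 3. The heavy and the light segment of this pair had similar shares in every library, both highest in WT 1 and second in FOXO3 KO 1. The share of Ighv12-3 was 5.18, 2.62 and 5.25% across WT 1, 2 and 3, against 4.25, 1.03 and 3.99% across FOXO3 KO 1, 2 and 3. The share of Igkv4-91 was 5.33, 3.30 and 3.63% across WT 1, 2 and 3, against 3.58, 1.72 and 3.57% across FOXO3 KO 1, 2 and 3. Both were lowest in the library labelled FOXO3 KO 2. Shares of segments within 1 library are not independent, and reads from related V segments may have been divided between them in the counting.

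**Figure D5:**
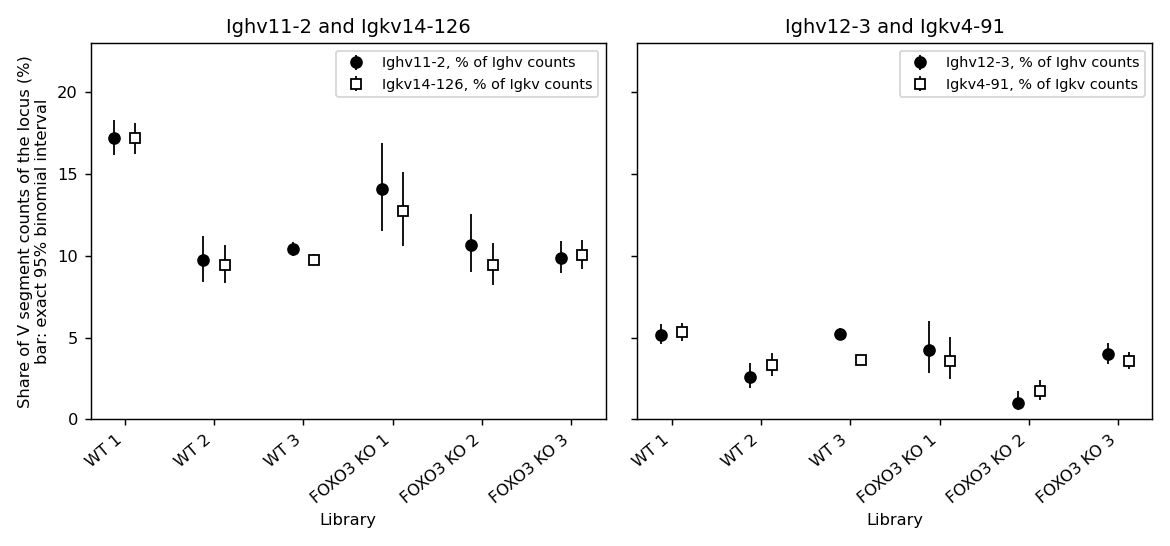
The share of Ighv11-2 (filled circles) with Igkv14-126 (open squares) and of Ighv12-3 with Igkv4-91 is plotted by library in percent of the V segment counts of the locus, with exact 95% binomial intervals as bars. The Ighv11-2 pair was highest in WT 1 (17.2% for both segments), and Ighv12-3 was lowest in FOXO3 KO 2 (1.03%).

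All 4 of these segments had a log2 fold change below 0, with a median of -2.33. Ighv11-2, Igkv14-126 and Igkv4-91 had unadjusted p of 0.0405, 0.0397 and 0.0440 by edgeR, and none passed an FDR of 0.05. Of all genes, 1.65% were lower at an unadjusted p under 0.05. Without FOXO3 KO 2 or without WT 3, 0 of the 4 kept an unadjusted p under 0.05, and the median was -2.11 and -1.20, respectively. The summed share of VH11 and VH12 in Ighv counts was 16.8% ± 5.12 (SD, n = 3) in WT and 14.7% ± 3.36 (SD, n = 3) in FOXO3 KO (exact permutation p = 0.6).

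By subset, the B-2 genes Fcer2a, Cr2, Ighd and Cxcr5 had a median log2 fold change of -2.59, which was -3.001 without FOXO3 KO 2 and -0.60 without WT 3. The B-1 genes Bhlhe41, Fcrl5 and Tnfrsf13b had a median of -0.49, which was 0.01 without WT 3. Both B-1 values are those of Tnfrsf13b, which is made outside the B lineage too, as is Bhlhe41. Bhlhe41 stood at -0.07 and Fcrl5 at -1.33. Other B-1 readings differed, with a median of -2.33 over the 4 V segments of B-1a cells and -0.62 over 9 other B-1 genes. The difference between the subsets was not tested. A set of 8 genes listed as also made by other leukocytes (Blnk, Pou2f2, Cd72, Spib, Btla, Ly6d, Cd24a and Bhlhe41) had a median of -0.41. The set was mixed, with Spib, Btla and Ly6d at -1.98, -2.01 and -1.92 and Pou2f2 at -0.59. Blnk, Cd72, Cd24a and Bhlhe41 lay between -0.22 and 0.32. Tnfrsf13b was not in the set.

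Genes of the B lineage outside the list gave a mixed reading. Of 56 such genes, 48 passed the filter, 37 had a log2 fold change below 0 and 11 above, and the median was -0.45. By kind of gene, the median was -1.77 over 5 class-switched genes, -0.62 over 9 other B-1 genes and -0.45 over 8 plasma cell genes. It was -0.27 over 20 pan-B and signalling genes and 0.0926 over 4 germinal centre genes. The 2 progenitor genes tested are described below. The 9 other B-1 genes summed to between 2330 CPM in WT 1 and 2743 CPM in WT 3, whereas Cd79a ranged 23.5-fold. The 20 pan-B and signalling genes summed to between 3121 CPM in FOXO3 KO 1 and 6125 CPM in WT 3. How much of the RNA of these lists, or of the germinal centre genes, came from other cells was not tested. Their medians are therefore not read as those of B cells alone. Of the 48, at an unadjusted p under 0.05 by edgeR, 1 was lower (Ighg1), beside 1.65% of all genes, and 1 higher (Dntt), beside 4.04%. None of the 48 passed an FDR of 0.05. Siglecg, an inhibitory lectin strong on B-1 cells, stood at 67.2, 30.3 and 308 CPM across WT 1, 2 and 3, against 14.7, 28.6 and 68.4 CPM across FOXO3 KO 1, 2 and 3. It followed Cd79a, with a log2 fold change of -1.88 (SE 0.97). Of 9 plasma cell genes, 4 (Irf4, Fkbp11, Derl3 and Cd27) were highest in WT 3, beside 36.1% of all genes tested. Sdc1, which macrophages also make, was lowest there, at 228, 279 and 64.5 CPM across WT 1, 2 and 3, against 163, 177 and 95.8 CPM across FOXO3 KO 1, 2 and 3. Tnfrsf17, the plasma cell receptor BCMA, was at most 0.387 CPM and did not pass the filter.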

How the data were processed

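RNA-seq of peritoneal macrophages in 3 libraries labelled WT and 3 labelled FOXO3 KO was used. The authors deposited estimated counts per gene symbol, not normalized, for 54648 symbols. The submitters' processing notes list STAR 2.6.1d, kallisto 0.46.0, DESeq2 and mm10, with no role or order. Values were rounded before testing (81.4% were whole to within 0.01). Estimated counts can divide reads between near-identical or overlapping genes in ways that the table does not show. Groups were taken from the genotype labels. The labels do not tie libraries to separate cultures or days, so p-values measure the spread between these 6 libraries.

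FOXO3 KO was set against WT in edgeR 4.0.16, R 4.3.3 (filterByExpr, TMM, quasi-likelihood test, Benjamini-Hochberg over all 15608 genes tested). Standard errors were derived from the log2 fold change and its F statistic. CPM uses TMM factors between 0.942 and 1.11. The 12 ratios and shares were compared by exact two-sided permutation tests, and shares have exact 95% binomial intervals for counting error. The scripts were tested on simulated data. Alternatives were DESeq2 1.42.0, upper-quartile or no scaling factors, no filter or one of 10 counts in 3 libraries, a block for replicate number, V segments with at least 10 counts, single libraries left out, and, added after the data were seen, leaving out WT 3 and FOXO3 KO 2 together and 2 fits for the Xist split. Python 3.11.15 with pandas 2.3.3, scipy 1.17.1, Biopython 1.88 and matplotlib 3.10.9 made the other tables. Coordinates and germline sequences are from GENCODE M21 (GRCm38), which matched all 35 genes, and promoters from RefSeq (GRCm38.p6).

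The members and the gene lists were chosen with earlier results of these data known. All 35 members may be named, with Foxo3, the genes of the fixed lists and the 5 V segments with the most counts per locus. Xist and the Y-linked genes were added after their values were seen. No 2 libraries were alike within sampling noise (smallest chi-square per degree of freedom 22.0).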

Additional observations from a re-analysis of the deposited data

How the results depend on the processing

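Under 15 alternatives per gene, 515 of 525 single-gene values kept their direction and stayed on the same side of an FDR of 0.05, and 29 of the 35 genes never changed direction. The count of members past an FDR of 0.05 was 0 in every alternative. Over all genes, DESeq2 called 129 genes at that threshold in place of 0, and 4 were called without both WT 3 and FOXO3 KO 2, an alternative chosen after the data were seen; leaving out single libraries gave 0 to 0. The count of members lower at an unadjusted p under 0.05, 3 with edgeR, was 27 with DESeq2 (3.84% of all genes), 19 with no filter (2.13%), 0 to 26 over the libraries left out in turn (0 without FOXO3 KO 1 or FOXO3 KO 2, beside 0.331% and 1.26% of all genes, 1 without WT 3, 2.25%, 7 without FOXO3 KO 3, 1.18%, and 26 without WT 2, 5.77%), and, in the fits added later, 23 with the Xist split as a covariate (4.85%) and 10 in the libraries with Xist near 0 (2.13%). The median member log2 fold change ranged from -2.44 (without FOXO3 KO 3) to -0.43 (without WT 3) and was -0.39 without both. Reversed values were 0.13 for Pou2f2 and for Fcrl5 and 0.0062 for Tnfrsf13b without WT 3, 0.13 for Bhlhe41 without FOXO3 KO 3, 0.0812 for Bhlhe41 with Xist near 0, and, without both, 0.23 for Pou2f2, 0.0134 for Bank1, 0.48 for Fcrl5, 0.0608 for Cd24a and 0.11 for Tnfrsf13b; the cause was not tested. Over single libraries left out, these genes ranged from -0.90 to 0.13 (Pou2f2), -2.90 to 0.13 (Fcrl5), -0.71 to 0.0062 (Tnfrsf13b) and -0.21 to 0.13 (Bhlhe41).

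The replicate numbers were checked for pairing. Deviations from the group means correlated across genes between same-numbered libraries at 0.26, -0.07 and 0.52, so the numbers were not taken to pair the mice, and WT 2 correlated best with FOXO3 KO 1 (0.55). With the replicate number as a block, 20 members were lower at an unadjusted p under 0.05 (2.98% of all genes), the median member log2 fold change was -1.49, and 0 members and 0 genes passed an FDR of 0.05. The count of members highest in WT 3 was 31 with and without TMM factors. Vpreb3 rested on 8 to 178 counts and Jchain on 56 to 382 counts per library.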

Other observations

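Of 7 B cell progenitor genes, 2 passed the filter on low counts, Dntt and Il7r. Il7r, the interleukin-7 receptor, which other leukocytes also make, stood at 509, 670.0 and 210.0 CPM across WT 1, 2 and 3, against 545, 499 and 348 CPM across FOXO3 KO 1, 2 and 3, with a log2 fold change of -0.01 (SE 0.42). Of the 5 others, Rag1 had at most 2 counts in a library, and Igll1, the surrogate light chain, had 0 counts in all 6. Dntt, the polymerase that adds bases at V(D)J junctions, stood at 0.0553, 0.210 and 0.166 CPM across WT 1, 2 and 3, against 0.645, 0.579 and 0.545 CPM across FOXO3 KO 1, 2 and 3, on at most 18 counts. The 3 FOXO3 KO libraries were above the 3 WT libraries, a position that 7.5% of all genes held. The log2 fold change of Dntt was 2.01 (SE 0.47, unadjusted p = 0.00487, adjusted p = 0.714 by edgeR). Siglech and Klk1, markers of plasmacytoid dendritic cells, lay above WT in all 3 FOXO3 KO libraries as well, again beside 7.5% of all genes. Their log2 fold changes were 1.43 (SE 0.45) and 1.66 (SE 0.45). The other 2 markers of that list, Ccr9 and Pacsin1, were highest in WT 3, with log2 fold changes of -0.62 (SE 0.57) and -1.20 (SE 0.87).

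Igkv1-110 was the second largest kappa V segment over all libraries and its share of Igkv counts was 8.92, 21.5 and 5.75% across WT 1, 2 and 3, against 6.60, 7.29 and 6.18% across FOXO3 KO 1, 2 and 3. It was the largest kappa segment in WT 2 alone, with 528 counts, and the largest heavy segment there was Ighv9-4, with 287 counts, which was named after its values were seen. The share of Ighv9-3 in Ighv counts was 11.4, 5.34 and 3.37% across WT 1, 2 and 3, against 9.38, 7.77 and 10.1% across FOXO3 KO 1, 2 and 3, with WT 3 the lowest. No D segment had a count in any of 20 symbols, whereas the 4 Ighj symbols together had 124, 40 and 447 counts across WT 1, 2 and 3, against 17, 21 and 83 counts across FOXO3 KO 1, 2 and 3.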
